A study of Mus musculus with 80 samples.

Results

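The uninjected hippocampus was followed from an early to a late stage of the intrahippocampal kainate model of temporal lobe epilepsy, and the question was which genes responded differently at the 2 stages. Of the 80 arrays of the series, the 40 taken from the contralateral (CL) hippocampus were used, 1 from each of 40 mice. The mice were C57Bl/6J males, 12 weeks old at surgery. Kainic acid (KA) mice received 50 nl of 20 mM kainic acid in the right dorsal hippocampus, and sham mice received the same volume of saline there, so the sham groups also carry a needle track on the other side. Total RNA of CL tissue was measured at day 7 (8 KA and 4 sham arrays), day 28 (9 and 5) and day 60 (9 and 5). The early KA effect is KA minus sham at day 7, the late KA effect is the mean of KA minus sham at day 28 and at day 60, and the comparison is the early minus the late effect. Different mice make up each day, so no mouse was followed over time. The labels do not give seizures or the extent of the lesion in any mouse.

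Kainate activates a class of glutamate receptor and sets off prolonged seizures, and a focal injection kills neurons around the needle while the opposite hippocampus is reached by seizure activity through commissural fibres. Microglia, the resident macrophages of the brain, answer such activity and debris with Fc receptors, complement C1q and chemokines. Type I and type II interferons switch on a further set of antiviral genes, and astrocytes respond by raising the intermediate filament proteins Gfap and vimentin. In bulk tissue such as this, fewer cells of a type and less RNA per cell cannot be told apart.

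Values are the deposited normalized log2 bead intensities, on which 1 unit is a 2-fold difference. All 14199 genes with a named probe were tested together with limma (moderated linear model, Benjamini-Hochberg adjustment, called at adjusted p under 0.05), and errors are SE for effects and SD for groups. Between 46.8 and 65.4% of probes were detected on a CL array. Slide accounted for 0.94 of the variance of the first principal component and group for 0.06. In gene lists of cell types, 4 arrays stood apart, a list's level being the mean log2 distance of its members from all CL sham arrays. KA day 28 replicate 4 and sham day 28 replicate 3, both on slide 4, were low in general neuronal genes (-1.33 and -0.95, the other 38 arrays from -0.16 to 0.17), and KA day 60 replicate 3 was low in myelin genes (-1.39). KA day 7 replicate 7 was the lowest of its group in microglial, complement, interferon and reactive astrocyte genes and the highest in genes of choroid plexus (2.20) and of thalamus and cortex (1.17). The part of these levels in the results was not tested. The main counts are therefore given with and without these 4 arrays, which were picked out after the data were seen. KA day 7 replicate 7 was picked partly by its low level in the microglial, complement, interferon and reactive astrocyte lists. Larger counts in these lists without the 4 arrays therefore follow in part from that choice and are no added support.

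The KA effect differed between the stages in 45 genes, all of them more raised at day 7. They include 3 genes of the microglial lists, 3 of complement and 4 of the interferon response, and 17 of the 45 belong to any of the 37 gene lists. They are 0.317% of the genes tested. For lower early minus late effects the share was 0%, with 0 genes called by limma among the 924 genes of either direction that had an unadjusted p under 0.05. The 45 genes had a median KA effect of 1.29 at day 7 (0.64 to 2.57) and of 0.08 in the late stage (-0.20 to 0.48), against medians of -0.01 and 0 over all genes. On day 7 all KA arrays lay above all sham arrays in 30 of the 45 genes, on day 28 in 1 and on day 60 in 0. Over all genes, such separation was found for 1.15, 0.162 and 0.0775% at the 3 days. Because the 45 genes were chosen on these arrays, their medians and this separation follow in part from the choice and are no added support. The difference exceeded 2-fold in 32 of the 45. Without the 4 arrays that stood apart, 155 of the 14199 genes were called (152 higher, 3 lower), and the 45 were all among them. The list counts given below without these arrays therefore rise along with the count over all genes. Single arrays moved the count by over 1.5 times: it was 121 without KA day 7 replicate 7, 79 without KA day 7 replicate 1, 27 without sham day 7 replicate 1 or 2, 18 without sham day 7 replicate 3 and 17 without sham day 7 replicate 4.

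**Figure D1:**
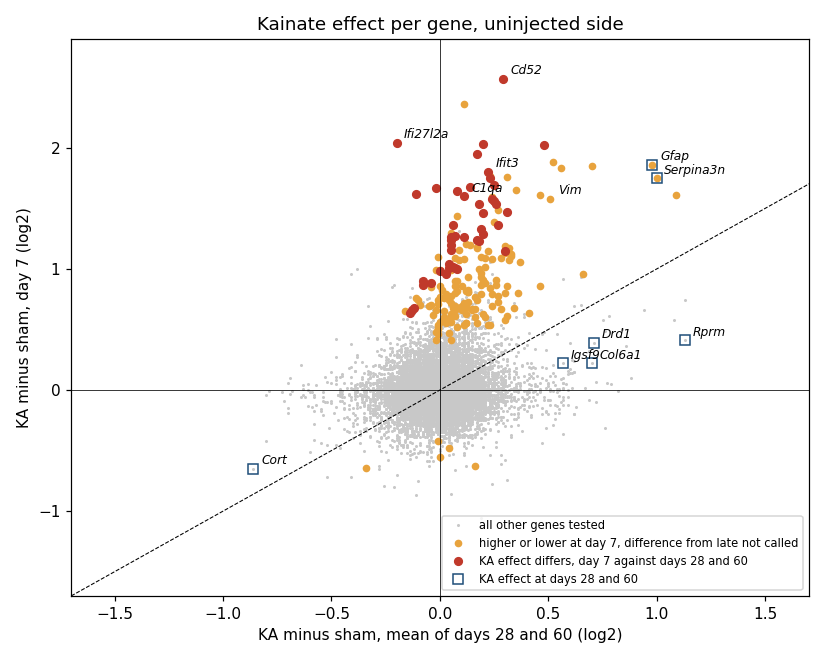
KA minus sham on the log2 scale for each gene, the mean of days 28 and 60 on the x axis and day 7 on the y axis, with the dashed line marking equal effects. The 45 genes called in early minus late (red) lie between 0.64 and 2.57 at day 7 and between -0.20 and 0.48 in the late stage, while Gfap and Serpina3n are raised in both and Rprm, Drd1, Igsf9 and Col6a1 lie to the right, below the line.

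With slide as a block, 42 genes were called, 34 of the 45 among them. On the 2 slides that held KA and sham arrays of day 7, KA was above sham for 45 of 45 genes on each, with median differences of 0.89 on slide 2 and 1.63 on slide 3 (50.7 and 46.5% of all genes were above sham there). The same arrays entered the choice of the 45 genes, so these signs are a description. On slides with both treatments of day 28, KA was above sham for 38 genes (median 0.53, slide 4, which holds 2 of the arrays that stood apart) and 28 genes (0.13, slide 5). For day 60 it was above sham for 36 genes (0.26, slide 8) and 22 genes (-0.01, slide 9). Each of these within-slide values rests on 1 or 2 arrays per treatment.

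Among the called genes, the largest differences were those of Cd52, a glycosylphosphatidylinositol-anchored protein of leukocytes, and Ifi27l2a, an interferon-induced gene. Cd52 read 6.89, 7.22, 7.07 and 6.77 on the sham arrays of day 7 and from 7.37 to 10.68 (median 9.57) on the KA arrays. On day 28 it read 7.29, 6.97, 6.94, 7.32 and 7.35 on sham and from 7.27 to 8.16 (median 7.39) on KA arrays. On day 60 it read 7.04, 7.08, 6.94, 6.70 and 6.86 on sham and from 6.12 to 7.87 (median 7.26) on KA arrays. All KA arrays were thus above all sham arrays of day 7, and at both later days the groups overlapped. The KA effect on Cd52 was 2.57 ± 0.32 early and 0.29 ± 0.21 late, a difference of 2.28 ± 0.38 (limma, adjusted p = 0.00427).

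Ifi27l2a read 5.79, 5.82, 5.63 and 5.85 on the sham arrays of day 7, of which 1 of 4 was above the detection limit, and from 6.57 to 8.99 (median 7.69) on the KA arrays. Its day 28 values were 6.54, 5.64, 6.19, 7.05 and 6.73 on sham and from 5.10 to 6.74 (median 6.11) on KA arrays, and on day 60 6.02, 6.29, 5.68, 5.56 and 6.19 on sham and from 5.35 to 6.47 (median 6.08) on KA arrays. Its groups were apart on day 7 and overlapped at the later days, with KA slightly below sham on average. The difference of effects was 2.24 ± 0.37 (limma, adjusted p = 0.00427), measured against sham levels near background. Cd52 and Ifi27l2a passed in all 40 fits that left out 1 array.

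**Figure D2:**
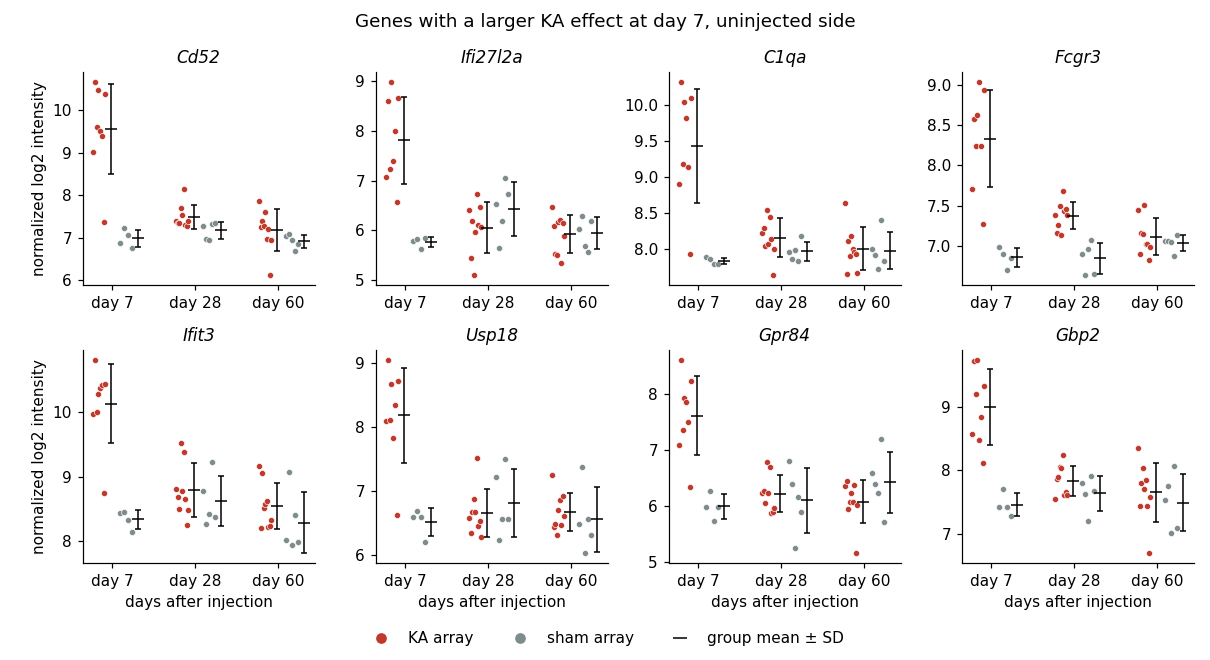
Normalized log2 intensity on each CL array for 8 genes called in early minus late, by day, with KA arrays in red, sham arrays in grey and group mean ± SD in black. The day 7 KA arrays of Cd52 reach 10.68 while no other array of that gene exceeds 8.16, and in all 8 genes the lowest KA array of day 7 is replicate 7.

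The called genes include 4 of Fc receptors, whose products bind antibodies on macrophages and for which no list was made. Fcgr3, an activating receptor for immunoglobulin G, read 6.99, 6.90, 6.71 and 6.85 on the sham arrays and from 7.28 to 9.04 (median 8.41) on the KA arrays of day 7. By day 28 it read 6.90, 6.64, 6.97, 7.08 and 6.65 on sham and from 7.14 to 7.68 (median 7.39) on KA arrays, so that KA stayed above every sham array at a smaller distance. On day 60 it read 7.06, 7.07, 7.05, 6.88 and 7.14 on sham and from 6.83 to 7.51 (median 7.03) on KA arrays, and the groups overlapped. The effect was 1.47 early and 0.31 late, a difference of 1.17 ± 0.22 (limma, adjusted p = 0.00913). The shared signalling chain Fcer1g differed by 1.31 ± 0.24, the inhibitory receptor Fcgr2b by 1.14 ± 0.22 and the activating receptor Fcgr4 by 1.55 ± 0.33 (limma, adjusted p = 0.00875, 0.00913 and 0.019). Fcgr4 was not called without sham day 7 replicate 2, 3 or 4 (adjusted p up to 0.0723), and its late value, 0.48, was the highest of the 4 and did not pass the late test. A further probe of Fcgr2b, detected on 0 CL arrays, read -0.11 ± 0.18, and another one 0.41 ± 0.16.

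Complement C1q, the opsonin that starts the classical pathway, is made in the brain by microglia, and the genes for all of its chains were called. C1qa read 7.89, 7.86, 7.80 and 7.80 on the sham arrays of day 7 and from 7.94 to 10.33 (median 9.51) on the KA arrays. On day 28 it read 7.96, 7.87, 7.99, 7.84 and 8.19 on sham and from 7.64 to 8.55 (median 8.14) on KA arrays, and on day 60 8.01, 7.92, 7.73, 8.41 and 7.84 on sham and from 7.66 to 8.65 (median 7.96) on KA arrays. The groups were apart on day 7 only by the small gap between the highest sham array and KA replicate 7, and they overlapped later. The differences of effects were 1.49 ± 0.29 for C1qa, 1.55 ± 0.33 for C1qb and 1.34 ± 0.28 for C1qc (limma, adjusted p = 0.00913, 0.019 and 0.0144). C1qb was not called with slide as a block (adjusted p = 0.0719). The downstream component C4b, which astrocytes also make, rose early by 1.85 and read 0.70 late, a difference of 1.14 ± 0.39 that was not called (limma, adjusted p = 0.36). Of the 5 complement genes tested, 4 rose at day 7 and 3 differed between the stages, with medians of 1.60 early and 0.14 late. The count was 4 without the 4 arrays. C1qb was also not called without sham day 7 replicates 2, 3 or 4, nor C1qc without replicates 3 or 4, one array at a time (limma, adjusted p up to 0.0789 and 0.0649).

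Among genes of activated microglia and macrophages, 8 of 12 tested rose at day 7 and 2 differed between the stages, Cd52 and the cystatin Cst7. The share of all genes that rose at day 7 was 1.34% (190 genes) and the share that fell 0.0352% (5 genes), and without the 4 arrays 280 genes rose and 12 fell. The list medians were 1.08 early and 0.19 late. Cst7 was above the detection limit on 7 KA arrays and 0 sham arrays of day 7, at least 2.33-fold higher in KA, and its difference, with every sham group below detection, was 1.56 ± 0.35 (limma, adjusted p = 0.0263). Cst7 was not called with slide as a block (adjusted p = 0.0511), nor without any 1 of the 4 sham arrays of day 7 or of KA day 7 replicates 2, 4 or 8 (adjusted p up to 0.138). Lyz2, lysozyme, rose early by 1.83 and Tspo, a mitochondrial outer membrane protein used as an imaging target for glial activation, by 0.93. Gpnmb, a transmembrane glycoprotein of lipid-laden macrophages, rose early by 1.61 and read 1.09 late, with a difference of 0.52 ± 0.45 that was not called. Without the 4 arrays, 6 of the 12 differed between the stages, with Lyz2, Axl, Tspo and Capg added.

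Of 12 tested genes of homeostatic microglia, 6 rose at day 7 and 1 differed between the stages, with medians of 0.71 early and 0.09 late. That gene was Trem2, a receptor for lipids and apoptotic cells, with a difference of 1.44 ± 0.31 (limma, adjusted p = 0.0203, but 0.0901 at most without sham day 7 replicate 3 or 4). Its signalling adaptor Tyrobp rose early by 1.39 and differed by 1.14 ± 0.27 without passing (limma, adjusted p = 0.0505). Aif1, the cytoskeletal protein known as Iba1, rose early by 1.09 and differed by 0.81 ± 0.32, which was not called (limma, adjusted p = 0.547). Aif1 was not called at day 7 without any 1 of the 4 sham arrays of day 7 or of KA day 7 replicates 2 or 4 (adjusted p up to 0.10). The purinergic receptor P2ry12 read 0.23 early and 0.10 late, and Cx3cr1, the fractalkine receptor, 0.54 and 0.02, neither called. Without the 4 arrays, 6 of the 12 differed, Trem2, Tyrobp, Laptm5, Fcrls, Tmem119 and Aif1.

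**Figure D3:**
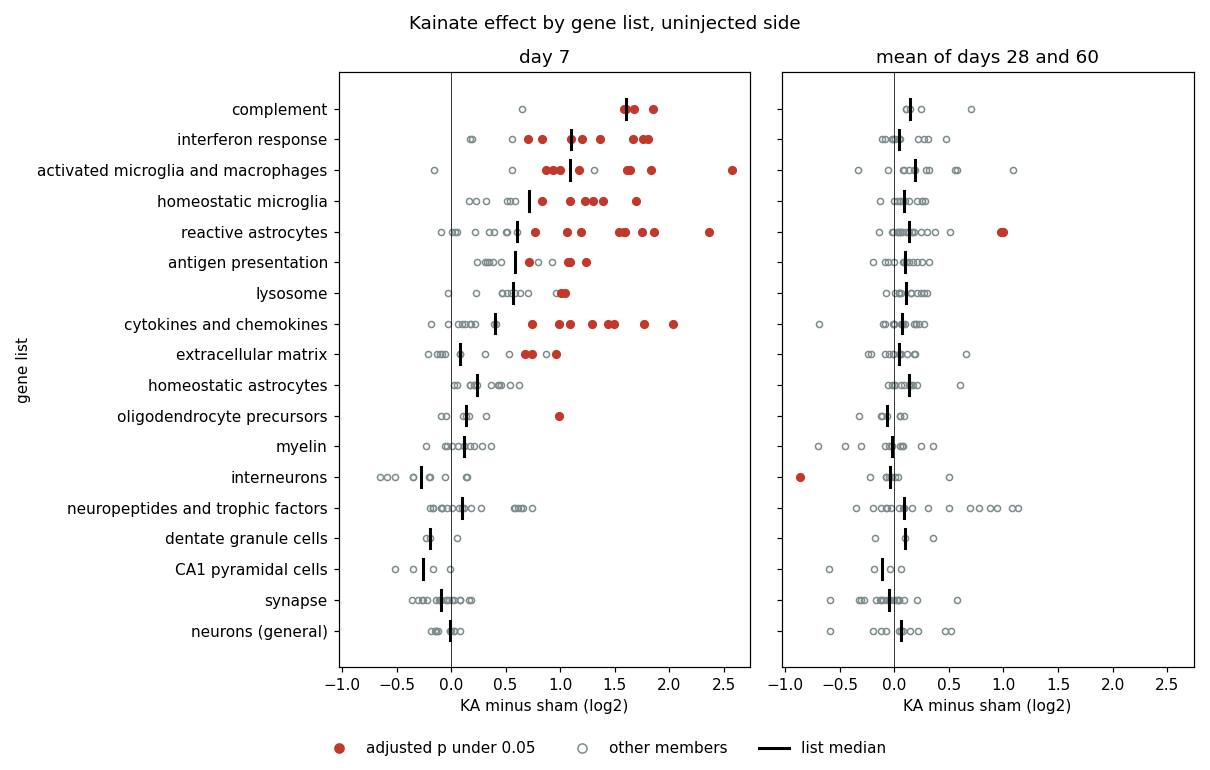
KA minus sham on the log2 scale for the tested members of 18 gene lists at day 7 (left) and in the late stage (right), with called members filled in red and the list median as a black bar. Complement has the highest day 7 median, 1.60, and in the late panel the called members are Gfap and Serpina3n among reactive astrocytes and Cort among interneurons.

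Other genes of phagocytes and their sensing were named by the lowest p-values. Gpr84, a receptor for medium-chain fatty acids, differed by 1.73 ± 0.34, Lgals3bp, a secreted binding partner of galectin, by 1.77 ± 0.33, and Renbp, a renin-binding epimerase, by 0.99 ± 0.18 (limma, adjusted p = 0.00913, 0.00875 and 0.00875). Stab1, a scavenger receptor of macrophages, differed by 0.79 ± 0.14 (adjusted p = 0.00875), and its level in KA was 0.64 above sham early and 0.14 below sham late (-0.14). The late value of Stab1 was -0.30 at day 28 and 0.01 at day 60. Its difference was not called with day 60 alone as the late stage or in the fit of all 80 arrays. P2ry6, the receptor for uridine diphosphate that triggers microglial phagocytosis, differed by 1.04 ± 0.21 (limma, adjusted p = 0.00913). Gpr84 was not called with slide as a block (adjusted p = 0.0524), whereas the other 11 of the 12 genes with the lowest p-values were, and all 12 passed in each of the 40 fits that left out 1 array.

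Of 18 tested cytokine and chemokine genes, 8 rose at day 7 and 2 differed between the stages, with medians of 0.40 early and 0.07 late. The differing genes were Ccl4, a chemokine that draws leukocytes, and Cxcl16, a transmembrane chemokine and scavenger receptor. Ccl4 read 6.20, 6.01, 5.96 and 5.71 on sham and from 6.02 to 9.80 (median 7.77) on KA arrays of day 7, where 7 of 8 KA arrays were above all sham arrays. Its difference was 1.82 ± 0.41 and that of Cxcl16 was 1.09 ± 0.23 (limma, adjusted p = 0.0229 and 0.019). Ccl12 rose early by 1.44. Cxcl10, Ccl3 and Ccl5, below detection on all sham arrays of day 7, were at least 2.77-fold, 2.21-fold and 1.61-fold higher in KA (limma, adjusted p = 0.000736, 0.00193 and 0.00673), while Il1b, Il6, Tnf and Ccl2 read 0.13, -0.18, 0.17 and 0.06 and were not called. Leaving out the 4 arrays, 8 of the 18 differed. Ccl4 was not called without any 1 of the 4 sham arrays of day 7 or of KA day 7 replicates 4 or 8, nor Cxcl16 without sham day 7 replicate 3 or 4 (limma, adjusted p up to 0.0977 and 0.0826).

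Interferon response genes were raised at day 7 and near sham later. Of 11 tested, 8 rose at day 7 and 4 differed between the stages, Ifit3, Usp18, Ifitm3 and Igtp, with medians of 1.10 early and 0.04 late. Leaving out the 4 arrays, 8 differed. Promoters from the RefSeq annotation (build GRCm38.p6, 250 bases before the transcription start to 50 after it) were searched on both strands for the interferon-stimulated response element written as GAAANNGAAA, whose reverse complement is TTTCNNTTTC. It was found for 7 of 9 interferon list genes with a promoter in the table (77.8%) and for 8 of 31 of the 45 called genes (25.8%), against 3.87% of the genes tested and 3.99% of all genes of the table. The called genes with a match were Ifit3, Ifitm3, Igtp, Gbp2, Gbp3, B2m, Eif2ak2 and Fcgr4. The letters GAGGAAGT, a binding motif of the myeloid factor PU.1, were found for 5 of the 31 (16.1%) against 3.38% of the genes tested, and for 0 of 8 activated and 0 of 9 homeostatic microglia genes. The 250 bases before the start are shown for the called list members with an interferon element in them, on the plus strand, 5′ to 3′, with the match in capitals.
Ifit3 (chr19:34583279-34583528): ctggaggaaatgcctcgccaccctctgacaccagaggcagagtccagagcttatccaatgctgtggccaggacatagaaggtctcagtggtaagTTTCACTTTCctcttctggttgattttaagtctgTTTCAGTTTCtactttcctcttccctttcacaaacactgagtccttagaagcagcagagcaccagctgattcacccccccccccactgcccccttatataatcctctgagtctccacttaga
Igtp (chr11:58199306-58199555): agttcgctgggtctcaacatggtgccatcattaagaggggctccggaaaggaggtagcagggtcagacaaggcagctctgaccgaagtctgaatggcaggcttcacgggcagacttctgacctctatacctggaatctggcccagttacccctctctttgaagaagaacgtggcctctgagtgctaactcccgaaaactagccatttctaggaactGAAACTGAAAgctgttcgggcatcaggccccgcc
Gbp2 (chr3:142620413-142620662): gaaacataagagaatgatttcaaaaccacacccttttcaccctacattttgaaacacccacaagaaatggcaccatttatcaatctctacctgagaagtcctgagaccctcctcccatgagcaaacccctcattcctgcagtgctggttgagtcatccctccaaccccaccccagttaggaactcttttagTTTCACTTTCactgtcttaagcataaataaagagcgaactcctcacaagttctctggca
B2m (chr2:122147437-122147686): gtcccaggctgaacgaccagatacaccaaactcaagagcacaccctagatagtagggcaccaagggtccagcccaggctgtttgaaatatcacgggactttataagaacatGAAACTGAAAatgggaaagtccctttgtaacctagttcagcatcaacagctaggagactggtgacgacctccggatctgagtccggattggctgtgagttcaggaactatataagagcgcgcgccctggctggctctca
The matches begin 156 and 122 bases before the start in Ifit3, 139 in B2m, 59 in Gbp2 and 34 in Igtp, and those of Ifitm3 lie after its start. A match describes the letters of a window and does not show that a factor binds there.

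Ifit3, an antiviral protein that binds foreign RNA together with its paralogs and whose promoter holds a pair of elements, read 8.44, 8.45, 8.32 and 8.14 on the sham arrays of day 7 and from 8.75 to 10.82 (median 10.33) on the KA arrays. Its day 28 values were 8.78, 8.27, 8.42, 9.22 and 8.38 on sham and from 8.25 to 9.53 (median 8.68) on KA arrays, and on day 60 8.02, 9.07, 7.94, 8.41 and 7.99 on sham and from 8.20 to 9.16 (median 8.52) on KA arrays. The groups were apart on day 7 and overlapped at both later days, when some sham arrays read above 9. The difference was 1.58 ± 0.31 (limma, adjusted p = 0.00913), and all 3 Ifit3 probes pointed the same way.

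Usp18, the protease that removes Isg15 from proteins and dampens interferon signalling, read 6.59, 6.69, 6.59 and 6.20 on sham and from 6.63 to 9.06 (median 8.23) on KA arrays of day 7, where 7 of 8 KA arrays were above all sham arrays. By day 28 it read 7.23, 6.23, 6.57, 7.51 and 6.56 on sham and from 6.28 to 7.52 (median 6.58) on KA arrays, and on day 60 6.49, 7.38, 6.03, 6.57 and 6.32 on sham and from 6.32 to 7.26 (median 6.62) on KA arrays. The later groups covered the same range. The difference was 1.69 ± 0.33 (limma, adjusted p = 0.00913, but 0.059 without sham day 7 replicate 4). The membrane protein Ifitm3 differed by 1.10 ± 0.24, the immunity-related GTPase Igtp by 1.15 ± 0.25, Parp14, an ADP-ribosyltransferase, by 1.20 ± 0.23 and Gbp2, a guanylate-binding protein, by 1.36 ± 0.29 (limma, adjusted p = 0.0209, 0.0212, 0.00913 and 0.017). Gbp2 was not called without sham day 7 replicate 3 or 4, Ifitm3 without replicate 1, 3 or 4, and Igtp without any 1 of the 4 (limma, adjusted p up to 0.0755, 0.079 and 0.0977). Isg15, Oasl2 and Rsad2 rose early by 0.83, 1.76 and 1.10, and Irf7, below detection on all sham arrays of day 7, was at least 1.23-fold higher in KA (limma, adjusted p = 0.0378). These 4 missed the test of the difference (limma, adjusted p = 0.0538, 0.0538, 0.0788 and 0.123).

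Among antigen presentation genes, 4 of 12 tested rose at day 7 and 1 differed between the stages, B2m, the light chain of major histocompatibility class I (1.08 ± 0.23, limma, adjusted p = 0.0209). B2m was not called once slide was a block (adjusted p = 0.0932) or without any 1 of the 4 sham arrays of day 7 (up to 0.0755). The class II genes H2-Ab1, H2-Aa and H2-Eb1 and the invariant chain Cd74 read 0.92, 0.33, 0.38 and 0.80 early and were not called. Of 12 lysosome genes, 2 rose and the same 2 differed, progranulin (Grn, 0.97 ± 0.21) and beta-glucuronidase (Gusb, 1.0 ± 0.24; limma, adjusted p = 0.019 and 0.0431). Gusb passed in 17 of the 40 fits that left out 1 array, with adjusted p up to 0.184, and was not called with the slide (0.0876) or the replicate number as a block. Its 2 other probes read 0.39 ± 0.16 and 0.52 ± 0.22. Grn was not called without sham day 7 replicate 1, 3 or 4 (up to 0.0605). Without the 4 arrays, 2 antigen presentation genes (B2m and Cd86) and 3 lysosome genes (Gusb, Hexa and Grn) differed. Tubb6, a beta-tubulin, was the called gene of an axon growth list (0.93 ± 0.20, limma, adjusted p = 0.0209, 0.0611 when slide was a block, and up to 0.12 without sham day 7 replicate 1, 2 or 3). The remaining called genes, named here after their values were seen, were Slamf9, Tlr2, Eif2ak2, Myo1f, Irf9, Nckap1l, Klhl6, Kcnk6, Was, Dhx58, Cryba4, Slc15a3, Il10ra, Cyp4f18, Ly86, Cyba and Gbp3 (adjusted p from 0.00913 to 0.0442), among them the pattern receptor Tlr2, the interferon signalling factor Irf9, the RNA sensors Eif2ak2 and Dhx58 and the actin regulators Was, Nckap1l and Myo1f. Cyp4f18 (0.94 ± 0.22) was detected on 6 CL arrays, and its other probes read 0.19 ± 0.19 and 0.58 ± 0.19. Further probes of Irf9 and Kcnk6 read 0.44 ± 0.20 and 0.33 ± 0.22, against 0.93 and 1.11. Those of Klhl6 and Gbp3 read 1.22 and 1.09, against 1.21 and 0.85.

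**Figure D4:**
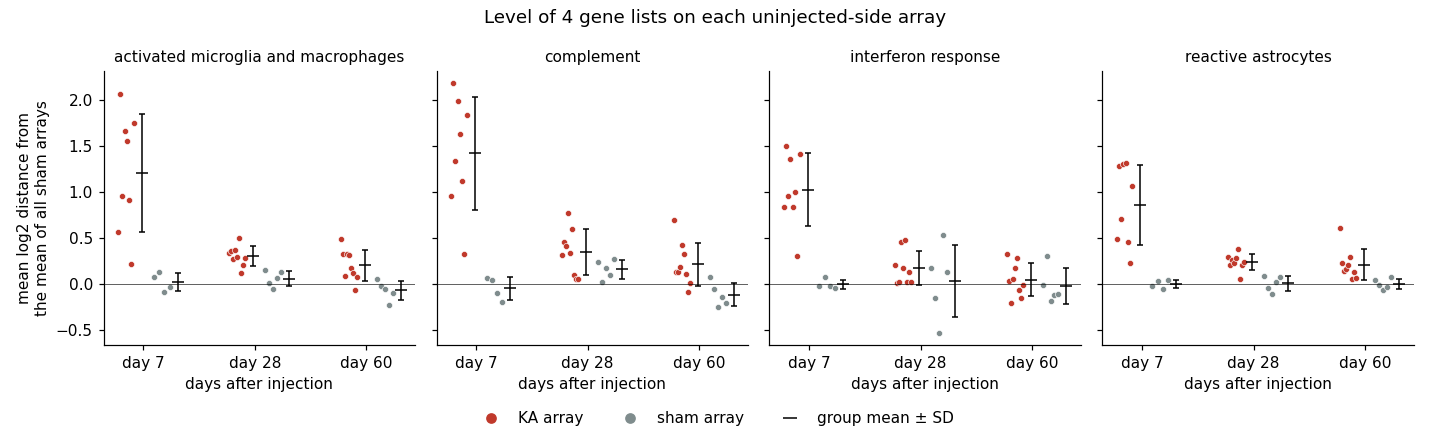
Level of 4 gene lists on each CL array, as the mean log2 distance of the list's members from the mean of all sham arrays, by day, with KA arrays in red, sham arrays in grey and group mean ± SD in black. The day 7 KA arrays of the activated microglia list run from 0.22 to 2.06, and the KA arrays of days 28 and 60 from -0.07 to 0.50.

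The KA arrays of day 7 differed widely among themselves. The activated microglia list ran from 0.22 (replicate 7) through 0.56 (replicate 1) to 2.06 (replicate 2), the complement list from 0.32 to 2.18 and the interferon list from 0.30 to 1.50, replicate 7 being lowest and replicate 2 highest in each. The sham arrays of day 7 stayed between -0.09 and 0.13 in the activated microglia list and between -0.05 and 0.07 in the interferon list. KA day 7 replicate 5 read 0.15 in homeostatic microglia but 1.55 in activated microglia and 1.31 in reactive astrocytes, the highest of its group in the last. On the injected side, the mouse of replicate 7 read 0.28 in the activated microglia list where the other 7 KA mice of day 7 read from 2.40 to 2.82.

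Some astrocyte genes were raised by KA in both stages. Of 19 reactive astrocyte genes tested, 9 rose at day 7, 2 rose in the late stage and 1 (Gbp2) differed between the stages, with medians of 0.60 early and 0.13 late. Leaving out the 4 arrays, 5 differed (Vim, Lcn2, Timp1, Osmr and Gbp2). The genes raised in both stages were Gfap and Serpina3n, a serine protease inhibitor. Their late calls were lost with median-scaled intensities and without slides 4 and 9. Of all genes, 0.0423% (6) rose in the late stage and 0.00704% (1) fell. Of the 190 genes that rose at day 7, 159 (83.7%) were also above 0 in the late stage, with different mice, against 49.8% of all genes, but their median late effect was 0.12 against 0.88 early, and 2 were called late. The 190 genes were chosen by their early values, which tends to raise the early median alone, so these medians do not measure a decline.

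Gfap read 7.95, 8.24, 8.15 and 8.23 on the sham arrays and from 8.23 to 10.73 (median 10.17) on the KA arrays of day 7. On day 28 it read 7.92, 7.83, 7.45, 7.46 and 7.73 on sham and from 8.05 to 9.39 (median 8.86) on KA arrays. On day 60 it read 8.24, 7.84, 8.30, 7.19 and 8.04 on sham and from 8.19 to 9.97 (median 8.73) on KA arrays. KA was above every sham array in 7 of 8 arrays at day 7, 9 of 9 at day 28 and 7 of 9 at day 60. The effect was 1.86 ± 0.31 early (limma, adjusted p = 0.000217) and 0.98 ± 0.20 late (adjusted p = 0.0357), and the difference of 0.88 ± 0.37 was not called (adjusted p = 0.613).

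Serpina3n read 9.80, 9.97, 9.70 and 10.11 on sham and from 9.90 to 12.70 (median 11.82) on KA arrays of day 7. Its day 28 values were 9.72, 9.54, 9.49, 9.40 and 9.86 on sham and from 10 to 11.27 (median 10.87) on KA arrays, and on day 60 9.98, 9.82, 10.15, 9.22 and 10.12 on sham and from 10.09 to 11.74 (median 10.53) on KA arrays. KA was above every sham array in 7 of 8, 9 of 9 and 8 of 9 arrays at the 3 days. The effect was 1.75 ± 0.31 early and 1.0 ± 0.20 late (limma, adjusted p = 0.000453 and 0.0323), with an uncalled difference of 0.75 ± 0.37 (adjusted p = 0.764). Vimentin (Vim) rose early by 1.58 ± 0.26 and read 0.51 late. Lcn2, a siderophore-binding lipocalin, was above the detection limit on 6 KA arrays and 0 sham arrays of day 7, at least 3.54-fold higher in KA (limma, adjusted p = 0.0195), and read 0.11 late. Neither difference was called in all 40 arrays (1.08 ± 0.31, adjusted p = 0.152, and 2.25 ± 0.69, 0.218, limma), and that of Vim was called without the 4 arrays (1.27, adjusted p = 0.0148).

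**Figure D5:**
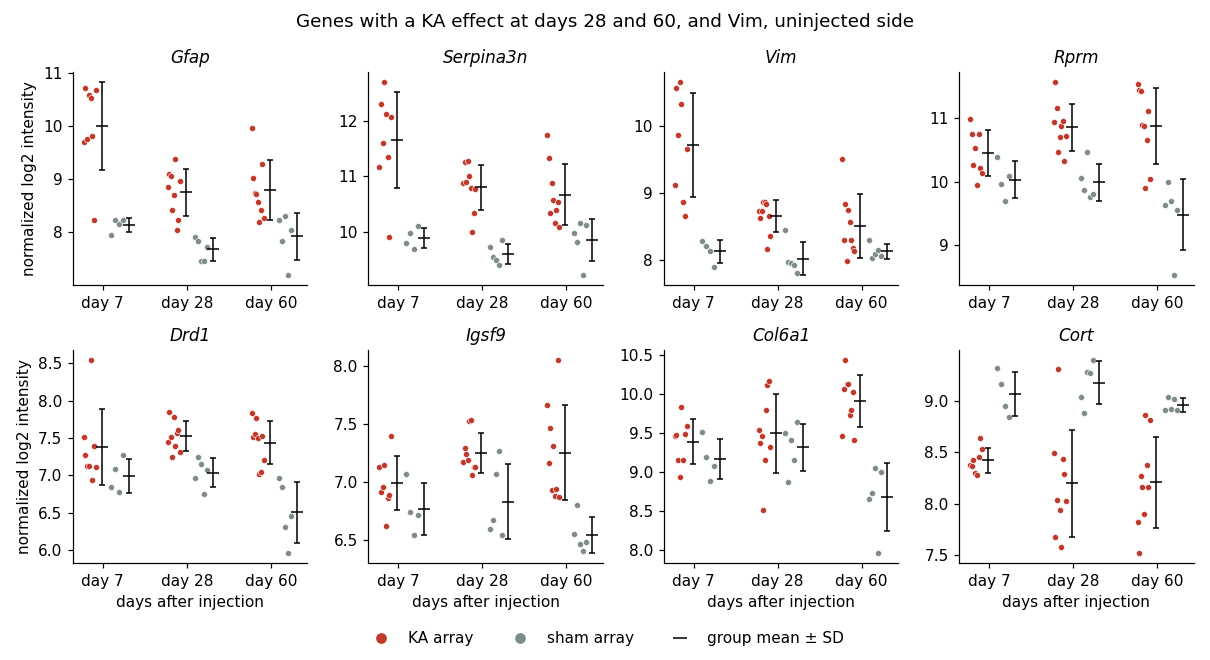
Normalized log2 intensity on each CL array for the 7 genes called in the late stage and for Vim, by day, with KA arrays in red, sham arrays in grey and group mean ± SD in black. Cort lies below every sham array on 8 of 8, 8 of 9 and 9 of 9 KA arrays at days 7, 28 and 60, and Rprm is above every sham array on 4 of 8, 7 of 9 and 8 of 9.

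The other late calls were of genes with smaller day 7 values. Rprm, reprimo, a target of p53 that arrests the cell cycle, read 10.39, 9.96, 9.69 and 10.08 on sham and from 9.95 to 10.98 (median 10.39) on KA arrays of day 7. By day 28 it read 10.06, 9.86, 10.47, 9.75 and 9.80 on sham and from 10.33 to 11.57 (median 10.87) on KA arrays, and on day 60 9.63, 9.99, 9.69, 8.53 and 9.56 on sham and from 9.90 to 11.53 (median 10.89) on KA arrays. The groups overlapped at each day, most at day 7. Its effect was 0.41 early and 1.13 ± 0.17 late (limma, adjusted p = 0.853 and 0.000491), and the difference of -0.72 ± 0.31 was not called (adjusted p = 0.628).

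Cort encodes cortistatin, a peptide of inhibitory interneurons related to somatostatin, and was the gene that fell in the late stage. It read 9.32, 9.16, 8.95 and 8.84 on sham and from 8.28 to 8.64 (median 8.40) on KA arrays of day 7. On day 28 it read 9.04, 8.88, 9.28, 9.27 and 9.40 on sham and from 7.58 to 9.31 (median 8.04) on KA arrays, and on day 60 8.91, 9.04, 8.92, 9.02 and 8.91 on sham and from 7.52 to 8.86 (median 8.16) on KA arrays. KA lay below every sham array at days 7 and 60 and, with the exception of 1 array, at day 28. The effect was -0.65 early and -0.86 late (limma, adjusted p = 0.144 and 0.000553), with a difference of 0.21 ± 0.24 (adjusted p = 0.973). Of the 10 interneuron genes tested, the others were not called, and Sst, somatostatin, read -0.35 early and -0.08 late.

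Drd1, the dopamine D1 receptor, rose late by 0.71, Igsf9, an adhesion protein of dendrites, by 0.57 and Col6a1, a chain of collagen VI, by 0.70 (limma, adjusted p = 0.00755, 0.0175 and 0.0357), against early values of 0.39, 0.22 and 0.22. Each of them was above every sham array on 9 of 9 KA arrays of day 60, the day on which its sham mean was lowest. At days 7, 28 and 60 the sham means of Drd1 were 6.99, 7.04 and 6.50, and the KA means 7.38, 7.53 and 7.44. For Igsf9 they were 6.77, 6.83 and 6.54 in sham and 6.99, 7.25 and 7.25 in KA. For Col6a1 they were 9.17, 9.31 and 8.68 in sham and 9.39, 9.49 and 9.91 in KA. The sham means of Rprm were 10.03, 9.99 and 9.48, likewise lowest at day 60. The part of the lower day 60 sham level in the late effects was not tested. Col6a1 read 1.23 at day 60 and 0.18 at day 28. On slide 4, Rprm read 0 and Cort 0.03 (1 KA and 1 sham array of day 28, both among those that stood apart). On slides 5, 8 and 9, Rprm read 1.03, 0.97 and 2.58 and Cort -1.51, -0.53 and -0.87. The slide 9 values compare 1 KA and 1 sham array of day 60, with 49.3 and 46.8% of probes detected. With slide as a block the late calls of Rprm, Drd1, Igsf9, Serpina3n, Gfap and Cort stood and that of Col6a1 was lost (adjusted p = 0.0714). With median-scaled intensities the late calls of Serpina3n, Gfap and Col6a1 were lost.

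Rprm, Drd1 and Cort passed the late test in each fit that left out 1 array. Igsf9 was not called without sham day 28 replicate 2 or 5 or sham day 60 replicate 4 (adjusted p up to 0.0694). Serpina3n was not called without KA day 28 replicate 2 or 3, sham day 28 replicate 2 or 3, KA day 60 replicate 2, or sham day 60 replicate 2 or 4 (up to 0.0867). Gfap was not called without KA day 28 replicate 2, 3, 5, 6 or 9, sham day 28 replicate 2, 3 or 5, KA day 60 replicate 2, 4 or 8, or sham day 60 replicate 2, 4 or 5 (up to 0.105). Col6a1 was not called without KA day 28 replicate 2, 3, 6 or 7, sham day 28 replicate 2 or 3, KA day 60 replicate 2, 4, 5 or 8, or sham day 60 replicate 1, 2 or 4 (up to 0.118). Without the 4 arrays that stood apart, 12 genes were called late, these 7 among them.

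Neuropeptide and trophic factor genes included 2, Npy and Nptx2, whose late call depended on the processing. Npy, neuropeptide Y, an inhibitory peptide that seizures induce in granule cells, read 11.32, 10.94, 10.78 and 10.82 on sham and from 11.01 to 11.98 (median 11.66) on KA arrays of day 7. Its day 28 values were 10.81, 10.72, 11.03, 11 and 10.69 on sham and from 10.75 to 12.63 (median 11.97) on KA arrays, and on day 60 10.94, 10.94, 10.90, 10.74 and 10.75 on sham and from 10.75 to 13.43 (median 11.59) on KA arrays. The KA arrays were above every sham array in 7 of 8, 8 of 9 and 8 of 9 cases. The effect on Npy was 0.66 early and 0.94 late (limma, adjusted p = 0.636 and 0.062), and that on Nptx2, a pentraxin that clusters glutamate receptors, 0.58 and 1.08 (adjusted p = 0.894 and 0.062). Blocking on slide brought both late effects past the threshold, at 1.11 for Npy and 1.21 for Nptx2 (limma, adjusted p = 0.00844 and 0.0473). They were called in 7 and 6 of 13 alternatives, which include the stricter detection filter and array weights for both and the mean of probes for Npy. In the fit without block, filter or weights, none of the 19 tested genes of this list was called in either stage or in the difference. Bdnf, Scg2, Inhba, Trh, Pdyn and Cartpt are among them, and Inhba was called late with the replicate block.

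Immediate early genes were not called, and their sham arrays differed between days. Fos read 7.06, 6.99, 7.20 and 7.07 on the sham arrays of day 7 and from 7.4 to 8.46 (median 8.21) on the KA arrays. By day 28 it read 8.00, 8.30, 8.65, 8.75 and 8.21 on sham and from 6.72 to 10.14 (median 8.22) on KA arrays, and on day 60 8.07, 9.26, 8.57, 8.99 and 8.58 on sham and from 6.70 to 9.39 (median 8.28) on KA arrays. The sham arrays of day 7 were lower than those of the later days, while the KA medians were alike, and the Fos difference of 1.37 ± 0.57 was not called (limma, adjusted p = 0.606). Arc, a synaptic activity gene, read 1.02 ± 0.49 in the same comparison (adjusted p = 0.739).

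In the early effect and early minus late, limma called 0 general neuron (11 tested), CA1 pyramidal (4) and dentate granule cell genes (3). The same held for synapse (19), GABA (6) and glutamate receptors (15), and potassium channels (21). It also held for sodium, calcium and HCN channels (16), myelin (11) and endothelium (9). Of all genes, 1.34% rose and 0.0352% fell early, so 0 calls in lists of this size lie near that share. This does not show that these genes were unchanged. Early values were above 0 for 0 of 4 CA1, 5 of 21 potassium channel, 8 of 11 myelin and 8 of 9 endothelial genes. Over all genes this share was 46.5%. Of the single genes looked at, Dcx, Pvalb, Gabrd, Aqp4, Fkbp5 and Dbp had differences from -0.23 (Dcx) to 0.41 (Aqp4), none called. Choroid plexus genes, a sign of neighbouring tissue, ranged from -1.52 to 2.20 over the 8 KA arrays and from -1.18 to 1.86 over the 4 sham arrays of day 7, with an early median of -0.61 and 0 of 7 called. Of 5 blood cell genes tested, 0 were called, and the hemoglobin gene Hbb-bt read 0.31 early and 0.08 late. In the early effect 5 genes fell. They include Nxph1, a neurexin ligand (-0.55), Msto1, a mitochondrial protein (-0.42), Gdf10, a growth factor of the bone morphogenetic protein family (-0.64), and Rapgef6, an exchange factor for Rap (-0.63; limma, adjusted p = 0.0173, 0.0197, 0.0267 and 0.0363). Each of these 4 lost its call without at least 2 of the sham arrays of day 7, taken 1 at a time (adjusted p up to 0.141, 0.212, 0.102 and 0.221), and Nxph1, Gdf10 and Rapgef6 with slide as a block (0.0638, 0.0878 and 0.367). The lowest p-values for a lower early than late effect were those of Rapgef6 (-0.79 ± 0.19, adjusted p = 0.0538), Rpp38 (-0.51), Fbxo16 (-0.51), Zfp39 (-0.38), Nxph1 (-0.54) and Bbs5 (-0.52), which did not pass. Without the 4 arrays Rapgef6 (-0.88, adjusted p = 0.00953) and Rpp38 (-0.56, 0.021) did.

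The 2 late days did not separate in the test. The day 28 minus day 60 KA effect had 0 called genes by limma, with 1149 (8.09%) at an unadjusted p under 0.05. The median effect over the 45 genes was 0.10 at day 28 and 0.13 at day 60. With day 28 alone as the late stage 14 genes were called, and with day 60 alone 10.

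On the injected side of the same mice, the early minus late effect of the 45 genes had a median of 1.07 and was above 0 in 45 of 45 (49.7% of all genes). Of the 45 genes, 20 were called there, against 145 of all 14199 genes (115 higher and 30 lower). The difference of the 2 sides was not called for any of the 45 (limma with the mouse as random block, lowest adjusted p = 1). Over all genes 1 was called, Wfdc18, which encodes a secreted whey acidic protein family member. It differed by 2.22 ± 0.42 (limma, adjusted p = 0.0127), with an early minus late effect of -0.06 ± 0.19 on the uninjected and -2.28 ± 0.30 on the injected side. Wfdc18 was not called with slide as a block.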

How the data were processed

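Total RNA of mouse hippocampus was hybridised to Illumina expression BeadChips. BeadStudio, GenomeStudio and Partek are named in the submitters' processing notes, with no versions or roles. The deposited log2 values of the series matrix were quantile normalized, since all 80 columns shared 1 distribution (largest gap 0.0112), and each column matched its own array's intensity in rank. The deposited bead intensity table, not scaled between arrays, and its deposited detection p-values served for the detection rule and the alternatives. Of its 25697 lines the first 21244 were used, and the displaced detection column of CL sham day 60 replicate 4 was moved back by 1 line (rank correlation with intensity 0.208 before and 0.988 after).

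Of 21244 probes, 19889 had 1 gene symbol and 1355 none. The probe with the highest mean over the CL arrays stood for a gene, which gave 14199 genes with no filter on dim probes. Group means of the 40 CL arrays were fitted with limma 3.58.1 (R 4.3.3, statmod 1.5.0), with a mean-variance trend and no block, and p-values were Benjamini-Hochberg adjusted over all genes. The 2 sides were compared over 80 arrays with the mouse as random block (correlation 0.0688). The fit was tested on simulated data. Figures and tables used Python (pandas and matplotlib).

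The design text of the series counts the day 60 sham mice as KA; the sample labels, which call them sham, were followed. Each array is 1 mouse, so p-values measure the spread between arrays of different mice. Without a block, differences between slides and in array quality are part of that spread. The number of arrays limits the precision. The comparison, the 37 gene lists (441 of 543 members have a probe) and the rules were chosen with earlier results of these data known. Named genes are, for early minus late, up to 12 per direction with the lowest p among detected and called genes (filled up to 6 with genes that did not pass), at most 4 called members of each list, at most 6 per direction in each other comparison, and a set of 25 markers, of which 3 had no named probe here (Penk, Calb1 and Kcnj10). Alternatives were neqc (offset 16) and median-scaled intensities, 2 detection filters, the mean of probes, no trend, array weights, slide or replicate blocks, day 28 or day 60 alone, all 80 arrays, and leaving out slides 4 and 9 or each array in turn. Replicate numbers did not pair the arrays (mean correlation of deviations 0.036 over 80 pairs, -0.305 to 0.284).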

Additional observations from a re-analysis of the deposited data

Results flagged for a closer look

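The KA effect differed between day 7 and the later days in 45 genes, and between the sides in Wfdc18 (2.22), both described above. Of 378 combinations of a named gene and a group, 37 held an array far from the others of its group by Dixon's test, where chance gives about 1 in 20. The values below are normalized log2 intensities, and no cause was tested.

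KA day 7 replicate 7 was low in Ifit3 (8.75, the others from 9.97), Fcgr4 (5.97, the others from 7.34) and Gfap (8.23, the others from 9.71). KA day 7 replicate 5 was high in Drd1 (8.55, the others up to 7.52) and Fkbp5 (9.26, the others up to 8.01) and low in Bdnf (7.48, the others from 9.01) and Rapgef6 (5.43). KA day 7 replicate 8 was high in Nptx2 (10.77).

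Among KA arrays of day 28, replicate 4 was low in Pvalb, parvalbumin (7.95, the others from 11.32), and in Rapgef6 (6.38), replicate 6 was high in Cd52 (8.16) and Usp18 (7.52), replicate 8 was low in Ccl4 (5.45) and replicate 2 was high in Msto1 (7.53). Among KA arrays of day 60, replicate 8 was high in Cartpt (8.95, the others up to 7.46), Trh (7.75, the others up to 6.23) and Wfdc18 (6.64) and low in Gpr84 (5.16) and Igtp (5.74). Replicate 3 of that group was high in Trem2 (8.98) and Grn (10.48) and low in C1qb (8.64, the others from 10.11) and B2m (10.68). Replicate 1 was high in C1qc (10.23) and Fcgr4 (7.29).

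Among sham arrays, day 7 replicate 1 was low in Cst7 (5.01), and replicate 4 was low in Zfp39 (7.93) and high in Sst (12.42). Of day 28, replicate 3 was low in Scg2 (6.01, the others from 10.24) and Ccl4 (5.32), replicate 1 was high in Vim (8.44), replicate 4 in Bbs5 (8.58) and replicate 5 in P2ry6 (8.01). Of day 60, replicate 3 was high in Scg2 (11.16) and low in Gabrd (8.24), replicate 4 was low in Cartpt (6.57) and replicate 5 was high in Rapgef6 (7.25).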

How the results depend on the processing

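All 45 genes of early minus late kept their sign in every alternative that tested them, and the count changed. It was 24 with median-scaled intensities, 189 with array weights, 74 with slide as a random block, 82 without slides 4 and 9, 155 without the 4 arrays that stood apart, 14 with day 28 and 10 with day 60 alone as the late stage, and 3 (Cd52, Ifi27l2a and Gpr84) in the fit of all 80 arrays, where the median residual SD of the 45 genes was 0.44 against 0.35 in the 40 arrays. It lay between 42 and 60 with neqc, the detection filters, the mean of probes, no trend, slide as a fixed block and the replicate block (46), and between 17 and 121 when 1 array was left out. Genes with a lower early effect appeared with array weights (12), the mean of probes (3), the filters (1 and 2), slide as a random block (2) and without slides 4 and 9 (3). The early count of 195 was 505 with array weights and 329 without slides 4 and 9, and between 121 and 246 without 1 array (121 without sham day 7 replicate 4). The late count of 7 was 4 with median-scaled intensities, 20 with the stricter detection filter, 15 with the mean of probes, 51 with array weights, 38 with slide as a fixed and 29 as a random block, 42 with the replicate block, 15 without slides 4 and 9, 15 in all 80 arrays and 12 without the 4 arrays. Without 1 array it was between 3 (sham day 28 replicate 2 or sham day 60 replicate 4) and 20 (KA day 28 replicate 4 or KA day 60 replicate 9). Samples sharing a replicate number are not paired, so the replicate block carries no design information. Day 28 minus day 60 gave 0 genes in every alternative, and the single gene of the comparison between sides was not called with slide as a fixed block (0 genes) and was in the 4 other alternatives run for it. The cause of these changes was not tested. No slide holds all 6 groups, the day 7 contrast rests on 4 sham arrays, and dim genes such as Cst7 are bounded by background.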

Other observations

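Further genes of the injury response rose at day 7 without a called difference from the late stage. Timp1, which inhibits matrix metalloproteinases, rose by 1.59, Osmr, the receptor for oncostatin M, by 1.19, Aspg, an asparaginase, by 1.06 and Emp1, a membrane protein of the claudin-related family, by 0.77 (limma, adjusted p = 0.00157, 0.00431, 0.00748 and 0.0218). In the late stage they read 0.24, 0.30, 0.37 and 0.16. Of 13 extracellular matrix and annexin genes tested, 3 rose at day 7, Anxa3 (0.74), Anxa2 (0.68) and S100a6 (0.96), a calcium-binding protein (limma, adjusted p = 0.00153, 0.0423 and 0.0166). S100a6 read 0.66 late, which was not called in 40 arrays and was called without the 4 arrays that stood apart (0.68 ± 0.13, limma, adjusted p = 0.0113).

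The 12 late genes without those 4 arrays also held Tmc6 (0.68), Rtn4rl1, a Nogo receptor homolog (0.53), Gng4, a G protein subunit (-0.51), and B3gat1, which makes the HNK-1 carbohydrate (-0.28), named after their values were seen (limma, adjusted p = 0.00645, 0.039, 0.039 and 0.046).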
